A study of Mus musculus with 9 samples.

Results

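The genes of the receptors for serotonin, noradrenaline and adrenaline, acetylcholine (the muscarinic type) and histamine were followed in the brain of obese ob/ob mice. Members were all genes whose symbol in the platform annotation fits the naming of these receptors: Htr for serotonin, Adra and Adrb for adrenergic, Chrm for muscarinic and Hrh for histamine receptors. The annotation used here named 25 of the 32 such genes of the list, out of 19505 named genes in all, and each had 1 probe set, so that no choice between probe sets was needed. These were 14 serotonin, 5 muscarinic, 4 histamine and 2 adrenergic receptor genes. The 7 others were adrenergic and were not analysed here, so that nothing can be said of that family as a whole.

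The study compared male mice in 3 groups, with 3 arrays each: lean C57BL/6JHamSlc-+/+ mice given vehicle, C57BL/6JHamSlc-ob/ob mice given vehicle, and ob/ob mice given VE, an extract of Vigna umbellata, by gavage at 100 mg/kg for 42 days. The mice were received at 6 weeks of age and kept for 1 week before the start. Both ob/ob groups lack functional leptin, and the VE group differs from wild type in genotype and treatment together. No group of wild-type mice given VE was analysed here. The values are log2 signals of Clariom S mouse arrays. The labels number the arrays of a group but do not state that each holds another mouse, so that p-values measure the spread between arrays.

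These receptors sit on neurons, glia and vessels and answer transmitters that a few small nuclei release widely over the brain. Most are coupled to G proteins: those of the Gq class raise calcium through phospholipase C, those of the Gi class lower cyclic AMP and open inward rectifier potassium channels, and those of the Gs class raise cyclic AMP. Htr3a and Htr3b differ from all the others, since they form an ion channel. In the brain the families are known for their part in arousal, memory, mood and feeding, and Htr2c and Hrh3 are known for effects on food intake.

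The second VE array stood apart from the rest. The SD of its log2 signals over probe sets was 2.38, and its highest value was 16.37. On the other arrays the highest value was 19.01 to 19.93. The SD was 2.78 to 2.84 on the wild-type arrays, 2.56 to 2.73 on the ob/ob arrays, and 2.8 and 2.69 on the other VE arrays. The part of these spreads in the differences between groups was not tested. Its correlation with the others was 0.962 to 0.970, against 0.979 to 0.993 among the other 8, and the differences that involve VE for the receptors the results turn on are also given without it. Of 8 neuron markers 8 stood above the median signal of 7.13, and of 4 adipose markers 0 did; the labels give brain, while the design text also mentions white adipose tissue. Glial markers moved with the ob/ob group: 3 of 7 astrocyte, 2 of 7 oligodendrocyte and 1 of 6 microglia markers fell against wild type, beside 1.27% of all probe sets called. The mean log2 signal of the astrocyte list was 12.18 to 12.34 in wild type, 11.28 to 11.66 in ob/ob and 11.15 to 11.77 in VE, and its part in the results on the receptors was not tested. The split of calls over all probe sets moved with the scaling between arrays. In ob/ob against wild type 42.3% of the calls were higher with the deposited values, 60.4% after quantile normalization, 60.0% after cyclic loess and 27.0% after centring each array on its median. Centring also moved the median difference of all probe sets between VE and ob/ob from -0.07 to 0.06.

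Chrm1, the muscarinic receptor of cortical and hippocampal principal neurons, was the 1 member that differed between groups at the threshold used, a limma adjusted p under 0.05 over all 22206 probe sets. It was lower in ob/ob than in wild-type brain, and lower in VE-treated ob/ob than in wild-type brain. Its log2 signals were 12.42, 12.42 and 12.57 on the wild-type arrays, 11.64, 11.37 and 11.73 on the ob/ob arrays, and 11.44, 11.16 and 11.29 on the VE arrays. All 6 arrays of ob/ob mice thus lay below all 3 wild-type arrays, with a gap of 0.69 log2 units for ob/ob and 0.98 for VE, while the ob/ob and VE arrays overlapped. Against wild type Chrm1 fell by 0.89 in ob/ob (SE 0.193, n = 3 per group, limma adjusted p 0.0463), which is 1.85-fold lower on a linear scale. In VE it fell by 1.17 (SE 0.193, limma adjusted p 0.0472), or 2.26-fold lower, and by 1.11 (limma adjusted p 0.0257) without VE array 2. Both comparisons use the same wild-type arrays and are not independent. The difference between VE and ob/ob was -0.28 (95% interval -0.70 to 0.13, limma adjusted p 0.567), and -0.22 (limma adjusted p 0.590) without VE array 2, so that an effect of VE of either sign was not shown.

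**Figure D1:**
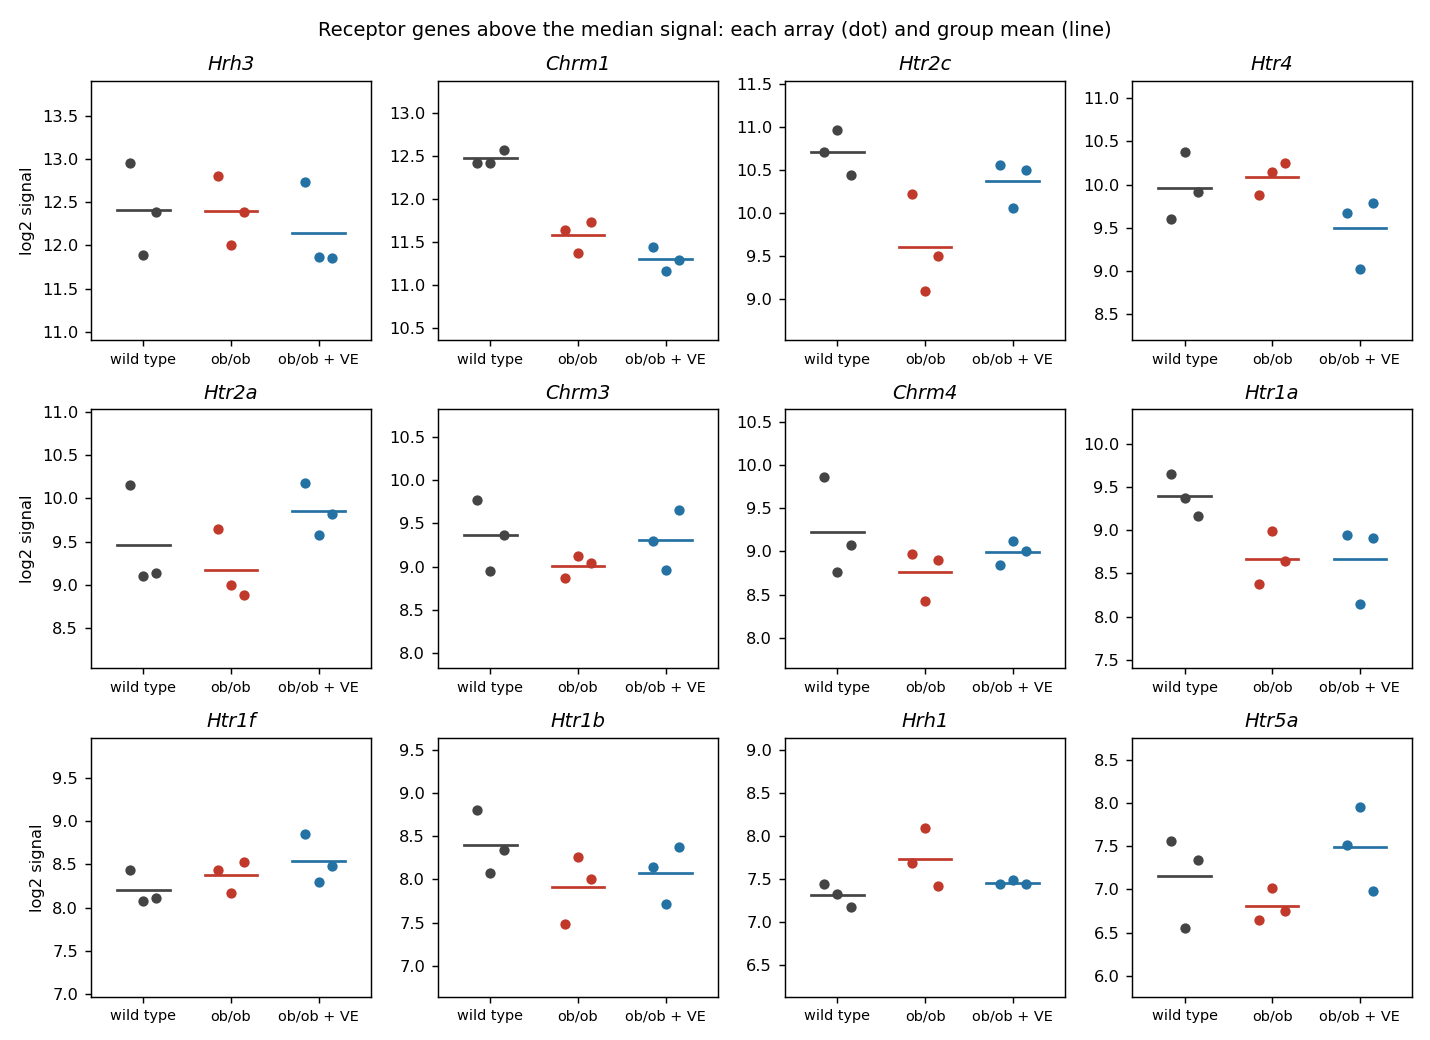
Log2 signal of the 12 receptor genes above the median signal, 1 dot per array and a line at the mean of each group of 3. Each panel spans the same range of log2 units around its own centre. Chrm1 is the 1 gene in which the wild-type arrays (12.42 to 12.57) stand well clear of both ob/ob groups (11.16 to 11.73).

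Both calls of Chrm1 were narrow. Its ob/ob call held in 10 of 21 refits with other settings and its VE call in 7 of 21. The difference kept its sign in all of them, at -0.97 to -0.59 in ob/ob and -1.25 to -0.82 in VE, with limma adjusted p of 0.00344 to 0.186 and 5.78e-05 to 0.314. The ob/ob call ended without any 1 of the 3 ob/ob arrays, any 1 of the 3 wild-type arrays or VE array 3 (limma adjusted p 0.0652 to 0.186). The VE call ended when any of the same arrays was left out (limma adjusted p 0.0819 to 0.314). After quantile normalization the ob/ob difference was -0.59 (limma adjusted p 0.121), smaller by over 1.5 times.

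The mean log2 signal of the 6 measured hippocampal markers, all of them other genes than Chrm1, was 8.30 to 8.89 on the wild-type arrays, 7.99 to 8.22 on the ob/ob arrays and 7.45 to 7.77 on the VE arrays. The 3 groups did not overlap in this mean. In the ob/ob and VE groups array 2 was the highest in this mean and the lowest in Chrm1. Of the 6, 4 stood above the median signal, and 0 passed the threshold in a comparison. At an unadjusted limma p under 0.05, 3 were lower in ob/ob (10.2% of all probe sets) and 5 lower in VE (9.21%) against wild type. Prox1, of dentate granule cells, was at -1.70 in VE against wild type (limma adjusted p 0.0634), and at -1.49 (limma adjusted p 0.0471) without VE array 2. In the fit without that array, 2 of the 6 fell in ob/ob against wild type, and 13.4% of all probe sets were called. The mean of the 8 neuron markers ran from 14.59 to 14.89 in wild type and from 13.71 to 14.33 in ob/ob, and was 14.58, 12.86 and 14.23 on the VE arrays, with 0 called and, without VE array 2, 3 lower in ob/ob. The mean of the 4 measured excitatory neuron markers overlapped between groups, at 13.42 to 13.98 in wild type, 12.60 to 13.48 in ob/ob and 12.33 to 13.78 in VE. Of these 4, 0 were called with all arrays, and 2 fell in ob/ob without VE array 2. The part of these lists in the Chrm1 result was not tested. In whole tissue, fewer cells of a type and less RNA per cell cannot be told apart.

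The other muscarinic receptor genes gave no call. Chrm3, a Gq-coupled receptor of many neurons and of glands, stood at 9.77, 8.95 and 9.37 in wild type, 8.87, 9.12 and 9.04 in ob/ob and 9.30, 8.96 and 9.65 in VE. Chrm4, the Gi-coupled receptor of striatal projection neurons, stood at 9.86, 8.76 and 9.07 in wild type, 8.97, 8.43 and 8.90 in ob/ob and 8.84, 9.12 and 9.01 in VE. For both genes wild-type array 1 was the highest of its group and the 3 groups overlapped. Their differences from wild type in ob/ob were -0.35 (95% interval -0.89 to 0.18) and -0.46 (95% interval -1.05 to 0.13), so that a fall as large as that of Chrm1 lies at or just inside their intervals. Chrm2, the Gi-coupled receptor known also from cholinergic terminals, and Chrm5, known from dopamine neurons, stood below the median signal. Chrm2 ran from 6.04 to 7.0 and Chrm5 from 6.01 to 6.72 over the 9 arrays. Over the 5 muscarinic genes, 3 of them above the median signal, the median difference was -0.35 in ob/ob and -0.26 in VE against wild type. Over all probe sets it was 0.02 and -0.07, and over those above the median signal -0.21 and -0.23.

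Htr2c, the Gq-coupled serotonin receptor of choroid plexus epithelium and of neurons that restrain feeding, had the widest difference of the 25 between ob/ob and wild type, and it did not pass. Its log2 signals were 10.71, 10.96 and 10.44 in wild type, 10.22, 9.10 and 9.50 in ob/ob, and 10.56, 10.06 and 10.50 in VE. The ob/ob arrays all lay below the wild-type arrays by at least 0.22, and VE array 2 lay below ob/ob array 1. The difference of ob/ob from wild type was -1.10 (SE 0.280, limma p 0.00178, limma adjusted p 0.0678). The difference of VE from ob/ob was 0.77 (SE 0.280, limma p 0.0170, limma adjusted p 0.250), and 0.92 (limma adjusted p 0.0908) without VE array 2. Since both use the ob/ob arrays, a low value there gives them opposite signs, and they are no separate evidence. VE against wild type gave -0.33 (95% interval -0.94 to 0.28), and -0.17 (limma adjusted p 0.895) without VE array 2.

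The ob/ob difference of Htr2c passed in 5 of 21 refits, among them the one without VE array 2 (limma adjusted p 0.0113), the one with the ob/ob and wild-type groups alone (limma adjusted p 0.0181) and the one with centred arrays (limma adjusted p 0.0397). In the same comparison these refits called 13.4%, 11.8% and 2.77% of all probe sets. The sign of the Htr2c difference held in all 21, at -1.40 to -0.84, and without ob/ob array 1 it was -1.40. Of the 9 measured choroid plexus markers, 5 stood above the median signal. In ob/ob against wild type 2 of the 9, Folr1 and Kl, fell, beside 1.27% of all probe sets called. The mean log2 signal of all 9 was 9.0, 10.04 and 9.76 on the wild-type arrays and 8.92, 7.83 and 8.63 on the ob/ob arrays. On the VE arrays it was 8.96, 8.33 and 8.91. In both Htr2c and the markers ob/ob array 2 was the lowest and ob/ob array 1 the highest of the ob/ob group. The same order was seen in the neuron, astrocyte, oligodendrocyte, endothelium, inhibitory neuron and thalamus marker lists, but not in the hippocampal list. It is thus not particular to the choroid plexus markers. Wild-type array 1 was the lowest wild-type array in the markers and the middle one in Htr2c, and the median of the markers in VE against wild type was -0.63. The mean of the 6 inhibitory neuron markers was 11.11 to 11.52 in wild type and 10.60 to 10.91 in ob/ob, and 11.42, 10.62 and 11.37 on the VE arrays. Their median difference was -0.60 in ob/ob against wild type and 0.59 in VE against ob/ob, with 0 called. Without VE array 2, 3 of them fell in ob/ob against wild type and 2 rose in VE against ob/ob, beside 13.4% and 1.81% of all probe sets called. The part of the choroid plexus and inhibitory neuron markers in the values of Htr2c and Htr2a was not tested.

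**Figure D2:**
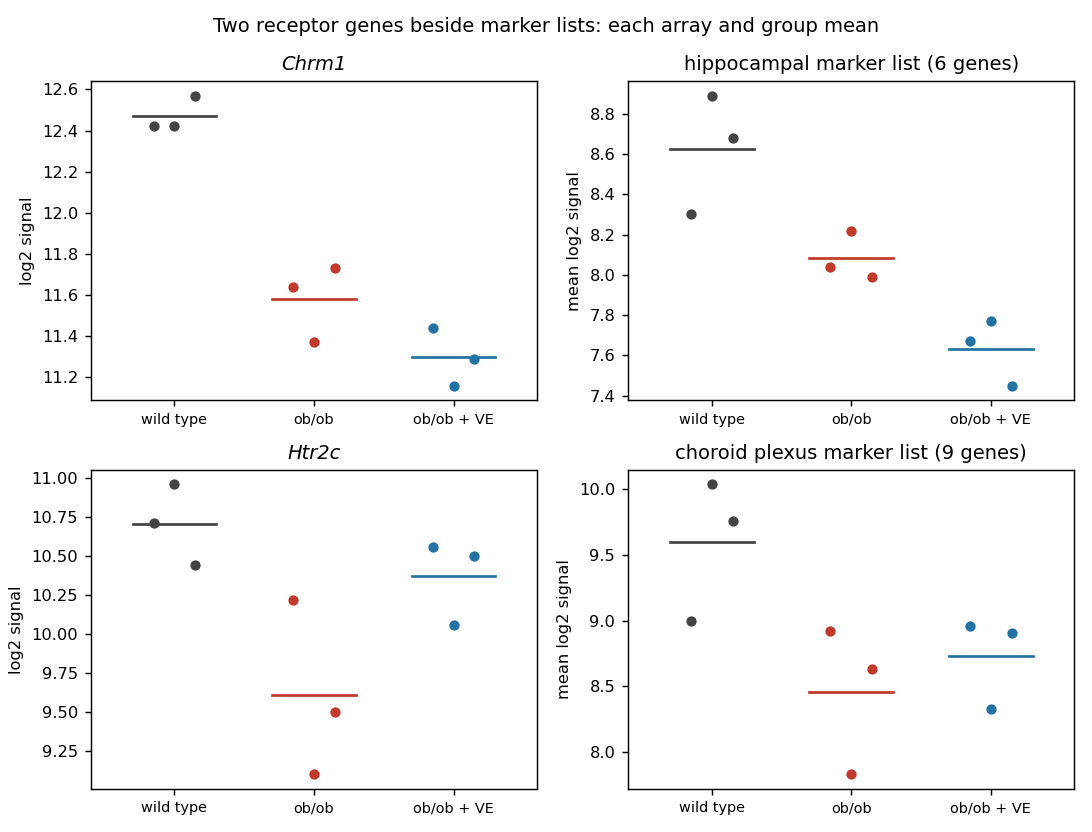
Log2 signal of Chrm1 and Htr2c on each array (left) beside the mean log2 signal of the hippocampal and choroid plexus marker lists (right), with a line at each group mean. The hippocampal list runs from 8.30 to 8.89 in wild type down to 7.45 to 7.77 in VE. In the ob/ob and VE groups array 2 is the highest in that list and the lowest in Chrm1. The choroid plexus list has its lowest array, 7.83, in the ob/ob group, as Htr2c does at 9.10. That array was also the lowest of the ob/ob group in the neuron, astrocyte and oligodendrocyte lists, which are not shown.

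Htr1a, the Gi-coupled autoreceptor of serotonin neurons and a postsynaptic receptor of hippocampus and cortex, stood lower in both ob/ob groups and did not pass. Its log2 signals were 9.65, 9.37 and 9.17 in wild type, 8.38, 8.99 and 8.64 in ob/ob, and 8.94, 8.15 and 8.91 in VE. All 6 arrays of ob/ob mice lay below all wild-type arrays, and the 2 ob/ob groups had the same mean of 8.67. The difference from wild type was -0.73 in ob/ob (SE 0.259, limma p 0.0149, limma adjusted p 0.148) and -0.73 in VE (SE 0.259, limma p 0.0145, limma adjusted p 0.285). Without VE array 2, its ob/ob difference passed (limma adjusted p 0.0273) and its VE difference was -0.47 (limma adjusted p 0.491), smaller by over 1.5 times. That fit called 13.4% of all probe sets in ob/ob against wild type.

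The sequence before the gene start is shown for Htr2c, Htr1a and Htr2a, the serotonin receptor genes at an unadjusted limma p under 0.05 in a comparison whose entry in the RefSeq promoter table (GRCm38.p6) reached 200 bases before the first annotated base of the gene. The entry of Htr5a does not reach that far. Of the 25 members 20 had an entry. Capitals mark matches on either strand to the E-box (CANNTG), the GC box (GGGCGG), the cyclic AMP response element (CRE, TGACGTCA), the AP-1 element (TGANTCA), the TATA box (TATAAA) or the CCAAT box, and no match overlapped another here. All 3 lie on the plus strand, at chrX:146962264-146962463, chr13:105443493-105443692 and chr14:74640674-74640873.
Htr2c: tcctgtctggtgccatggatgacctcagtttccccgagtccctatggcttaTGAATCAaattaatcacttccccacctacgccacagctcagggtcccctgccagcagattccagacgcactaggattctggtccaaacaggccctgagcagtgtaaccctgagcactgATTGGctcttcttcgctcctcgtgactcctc
Htr1a: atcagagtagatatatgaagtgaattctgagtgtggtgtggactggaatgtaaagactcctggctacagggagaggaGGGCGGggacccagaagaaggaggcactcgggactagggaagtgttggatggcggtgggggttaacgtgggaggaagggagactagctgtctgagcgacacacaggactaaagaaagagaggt
Htr2a: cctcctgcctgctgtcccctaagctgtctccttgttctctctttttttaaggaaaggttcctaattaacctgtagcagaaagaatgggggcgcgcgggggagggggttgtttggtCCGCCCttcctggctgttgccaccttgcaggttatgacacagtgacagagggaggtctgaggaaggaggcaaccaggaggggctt

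Counted from the first base shown, Htr2c held 1 AP-1 match that began at base 52 and 1 CCAAT box, on the other strand, at base 170. Htr1a and Htr2a held 1 GC box each, at base 78 and, on the other strand, at base 116. Of 32843 windows of the same length in that table, 5.48% held the AP-1 letters, 29.4% the CCAAT box, 31.1% the GC box, 58.2% the E-box, 9.96% the TATA box and 1.47% the CRE. The letters of these last 3 are not in the windows shown. GC content was 54.5%, 53.0% and 55.5% for Htr2c, Htr1a and Htr2a, near the median of 53.0% over all windows.

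Htr2a, the Gq-coupled receptor of cortical pyramidal neurons on which classical hallucinogens act, gave no call. Its log2 signals were 10.15, 9.10 and 9.14 in wild type, 9.64, 9.0 and 8.88 in ob/ob, and 10.18, 9.57 and 9.82 in VE. The groups overlapped, since wild-type array 1 stood with the VE arrays and ob/ob array 1 above VE array 2. VE against ob/ob was at 0.68 (SE 0.307, limma p 0.0441, limma adjusted p 0.357), and at 0.83 (limma adjusted p 0.161) without VE array 2.

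Htr5a, a Gi-coupled receptor of forebrain neurons, likewise had its widest difference between VE and ob/ob. Its log2 signals were 7.56, 6.55 and 7.34 in wild type, 6.65, 7.02 and 6.75 in ob/ob, and 7.52, 7.96 and 6.98 in VE. Of the VE arrays, array 3 stood within the range of the ob/ob group. The difference was 0.68 (SE 0.297, limma p 0.0395, limma adjusted p 0.340), and 0.44 (limma adjusted p 0.407) without VE array 2, which had its highest signal.

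Htr4, the Gs-coupled receptor of striatum and hippocampus, and Htr5b, a rodent receptor of the raphe and habenula whose human counterpart is a pseudogene, were the 2 members in which VE and ob/ob did not overlap. Htr4 stood at 9.60, 10.38 and 9.91 in wild type, 9.88, 10.15 and 10.25 in ob/ob, and 9.67, 9.02 and 9.79 in VE. Htr5b stood at 5.95, 6.76 and 6.69 in wild type, 6.59, 6.72 and 6.68 in ob/ob, and 6.19, 6.11 and 6.13 in VE. In both genes the VE arrays were the lower ones, by a gap of 0.09 in Htr4 and of 0.40 in Htr5b, while the wild-type arrays spread across both ranges. VE against ob/ob was at -0.60 for Htr4 (SE 0.261, limma adjusted p 0.338) and at -0.52 for Htr5b (SE 0.229, limma adjusted p 0.344). Without VE array 2 they were at -0.36 (limma adjusted p 0.423), smaller by over 1.5 times, and at -0.50 (limma adjusted p 0.263).

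The Gi-coupled Htr1b, a receptor of axon terminals, and Htr1f, a target of migraine drugs, gave no call. Htr1b stood at 8.80, 8.07 and 8.34 in wild type, 7.48, 8.26 and 8.01 in ob/ob, and 8.14, 7.72 and 8.38 in VE. Htr1f stood at 8.43, 8.08 and 8.11 in wild type, 8.43, 8.17 and 8.53 in ob/ob, and 8.85, 8.29 and 8.48 in VE. The 3 groups overlapped in both genes, and the differences of ob/ob from wild type were -0.49 (95% interval -1.07 to 0.10) and 0.17 (95% interval -0.30 to 0.64).

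Of the histamine receptors, Hrh3, a Gi-coupled autoreceptor of histamine neurons and presynaptic receptor, and Hrh1, the Gq-coupled receptor of wakefulness, stood above the median signal. Hrh3 was at 12.96, 11.89 and 12.39 in wild type, 12.81, 12.01 and 12.39 in ob/ob, and 12.73, 11.86 and 11.85 in VE. The SD within the wild-type group was 0.535, and the ob/ob difference was -0.01 (95% interval -0.70 to 0.68), which took the other sign after quantile normalization and cyclic loess. Hrh1 was at 7.44, 7.33 and 7.18 in wild type, 7.69, 8.09 and 7.42 in ob/ob, and 7.44, 7.49 and 7.44 in VE. Of its ob/ob arrays, 2 lay above all others and array 3 lay below the VE arrays and within the wild-type range, and the difference was 0.42 (SE 0.211, limma adjusted p 0.287). Hrh2, which is Gs-coupled, ran from 5.65 to 6.87 with its lowest value on VE array 2, and Hrh4, a receptor of blood cells, from 5.80 to 6.15.

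In all, 13 members stood below the median signal, with means of 4.24 to 7.10 and ob/ob differences of -0.30 to 0.48. Besides Htr5b and the 4 muscarinic and histamine receptor genes just given they were Adra1b, Adra2c, Htr1d, Htr2b, Htr3a, Htr3b, Htr6 and Htr7. Adra1b, the Gq-coupled receptor of noradrenaline in thalamus and cortex, stood at 7.56, 6.98 and 7.12 in wild type, 7.19, 6.66 and 6.92 in ob/ob, and 7.54, 6.83 and 7.13 in VE. It lay just under the median signal of 7.13 at a mean of 7.10, as Htr5a lay just above it at 7.15, and its ob/ob difference was -0.30 (95% interval -0.83 to 0.24). Adra2c, a Gi-coupled receptor of striatum, ran from 6.03 to 6.42 with a difference of -0.03 (95% interval -0.46 to 0.40).

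Htr1d, a Gi-coupled terminal receptor, was the 1 member with ob/ob arrays wholly above wild type. It stood at 6.37, 6.06 and 5.84 in wild type, 6.57, 6.52 and 6.62 in ob/ob, and 5.87, 6.58 and 6.14 in VE. The ob/ob difference was 0.48 (SE 0.227, limma p 0.0547, limma adjusted p 0.259). The Gs-coupled Htr7, known for a role in circadian timing, ran from 6.56 to 7.5 and the Gs-coupled Htr6 from 4.90 to 5.37. The channel subunit genes Htr3a and Htr3b ran from 6.14 to 6.87 and from 4.89 to 5.14, and Htr2b, a receptor of heart valves and microglia, from 3.90 to 4.91. Htr3b was higher on all VE than on all wild-type arrays by a gap of 0.08, with a difference of 0.15 (limma adjusted p 0.757).

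**Figure D3:**
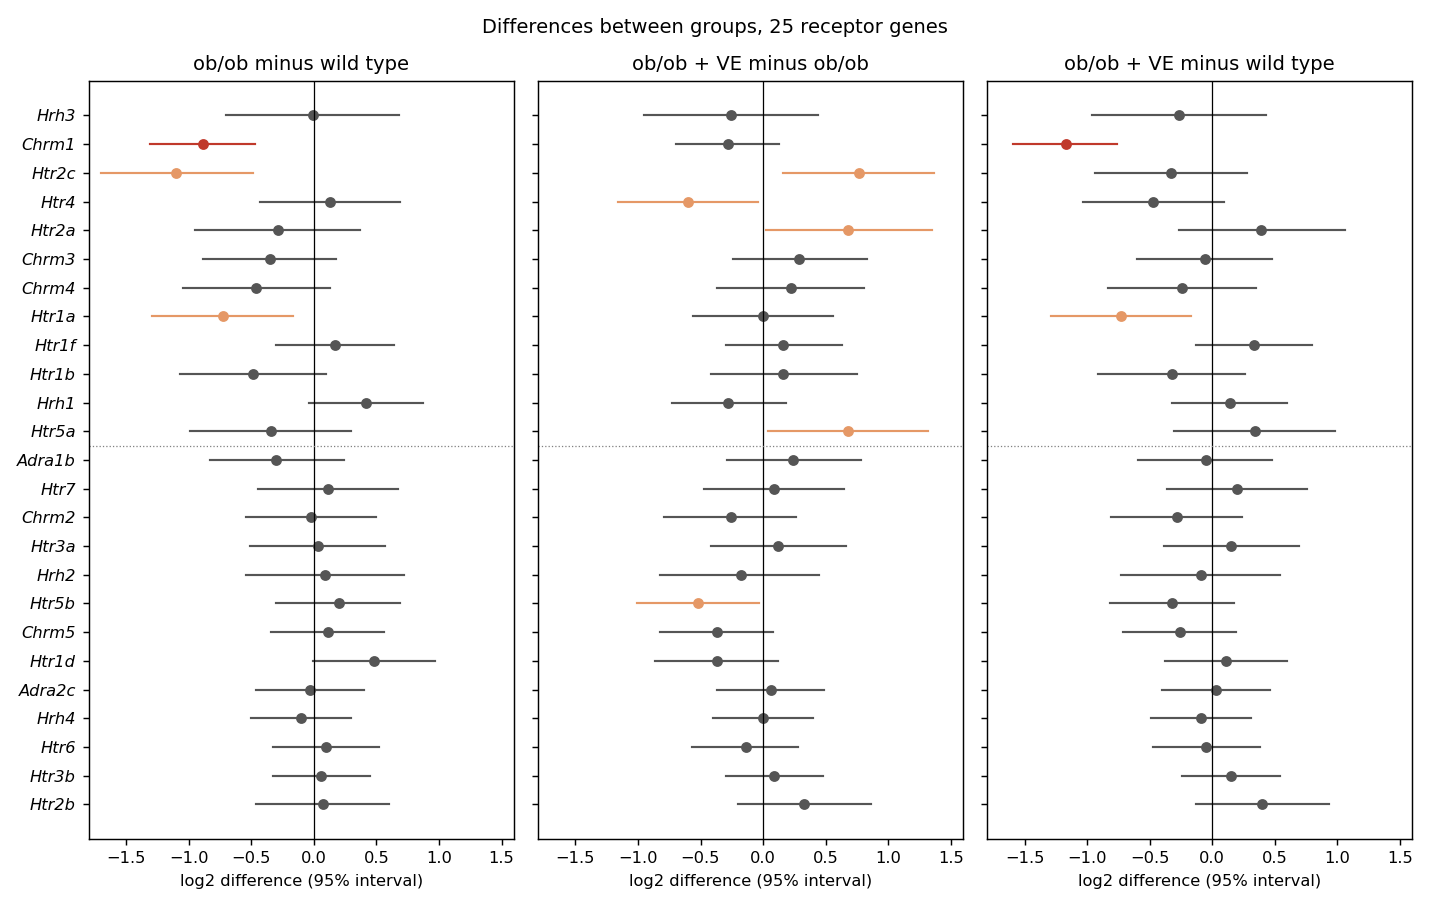
Log2 differences between groups for the 25 receptor genes, ordered by mean signal, with points for the estimates and lines for 95% intervals of the moderated fit. Red marks an adjusted p under 0.05, orange an unadjusted p under 0.05 alone and grey the rest; the dotted line separates genes above and below the median signal. Red falls on Chrm1 in the 2 comparisons with wild type, at -0.89 and -1.17, and on no gene in VE against ob/ob.

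Counted over the 25 members, 1 was called in ob/ob against wild type, beside 1.27% of all probe sets, and 1 in VE against wild type, beside 0.0991%. In VE against ob/ob 0 of 25 were called by limma, beside 0.486%, with 5 at an unadjusted limma p under 0.05, beside 13.3%. At that unadjusted threshold 3 members were lower in ob/ob than in wild type (10.2% of probe sets were lower) and 0 were higher (9.88%). In VE against ob/ob 3 were higher (3.21%) and 2 lower (10.1%), and in VE against wild type 2 were lower (9.21%) and 0 higher (2.98%). At either sign the unadjusted share was 20.1% of probe sets in ob/ob against wild type and 12.2% in VE against wild type. Groups did not overlap for 4 members in ob/ob against wild type (33.3% of probe sets), 3 of them lower (17.5%) and 1 higher (15.8%). In VE against ob/ob 2 did not overlap (16.5%), both lower (11.9%) with 0 higher (4.62%), and in VE against wild type 3 did not (16.8%), 2 lower (11.5%) and 1 higher (5.34%). A gene that misses the threshold is not shown to be unchanged.

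By level, the 12 members above the median signal had a median difference of -0.35 in ob/ob against wild type, with 9 of 12 below 0, beside -0.21 over all probe sets above the median signal. The 13 dimmer members had a median of 0.07, beside 0.17 over all dimmer probe sets. In VE against ob/ob the medians were 0.16 and 0.00, beside -0.05 and -0.09, and without VE array 2 they were 0.27 and 0.00, beside 0.13 and -0.12. By coupling, the 8 Gq members had a median of -0.29 in ob/ob against wild type and 0.27 in VE against ob/ob, 2 comparisons that share the ob/ob arrays. The 11 Gi members were at -0.03 and 0.00, the 4 Gs members at 0.10 and -0.16, and the 2 channel subunits at 0.05 and 0.10. Over all probe sets the medians were 0.02 and -0.07. The classes differed in signal level: 5 of 8 Gq, 6 of 11 Gi, 1 of 4 Gs and 0 of 2 channel members stood above the median signal. The part of signal level in the medians by coupling was not tested. Of the 25 members 8 took the other sign in ob/ob against wild type under at least 1 of the 3 scalings, and Chrm1, Htr2c and Htr1a did not.

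With all 9 arrays, genes tied to these receptors were called in ob/ob at a share near that of probe sets above the median signal. The lists of G protein subunits, effectors, regulators, transmitter enzymes and related receptors held 86 measured genes. Of these, 3 fell in ob/ob against wild type (3.49%, beside 1.27% of all probe sets) and 0 rose. The refit of the probe sets above the median signal alone called 3.67% of them. Above it stood 11 of 13 alpha subunits, 20 of 24 effectors and 12 of 14 regulators, and a smaller share of each other list. In VE against ob/ob 0 of 86 passed by limma, with 13 at an unadjusted limma p under 0.05 (15.1%, beside 13.3% of all probe sets). In VE against wild type 0 of 86 passed by limma, with 20 at that p (23.3%, beside 12.2%). Without VE array 2 the counts were larger: 13 of 86 fell and 2 rose in ob/ob against wild type, 1 fell and 4 rose in VE against ob/ob, and 2 rose in VE against wild type. The shares of all probe sets called in that fit were larger too, at 13.4%, 1.81% and 0.329%. Kcnj9, a subunit of the inward rectifier channel that Gi-coupled receptors open, stood at 9.14, 8.52 and 9.10 in wild type, 7.94, 7.56 and 7.70 in ob/ob, and 8.44, 8.89 and 8.29 in VE. It fell by 1.19 in ob/ob (SE 0.239, limma adjusted p 0.0401), and its VE arrays lay above all ob/ob arrays and overlapped wild type, at a difference from ob/ob of 0.81 (limma adjusted p 0.153), or 0.63 (limma adjusted p 0.15) without VE array 2. Rgs2, which ends Gq signalling, fell by 1.24 in ob/ob (SE 0.265, limma adjusted p 0.0462), from a mean of 7.54 to 6.31. Its VE arrays stood at 7.47, 6.73 and 7.68, above all ob/ob arrays, whose highest was 6.35. Without VE array 2 it rose by 1.27 in VE against ob/ob (limma adjusted p 0.013), beside 1.81% of all probe sets called. In that fit it was at 0.03 in VE against wild type (limma adjusted p 0.979). Rgs16, a regulator of Gi signalling that is also on the thalamus marker list, fell by 1.05 in ob/ob (SE 0.230, limma adjusted p 0.0467). All 3 calls in ob/ob against wild type ended without any 1 ob/ob or wild-type array or without VE array 3. Limma adjusted p then reached 0.196, 0.203 and 0.208 for Kcnj9, Rgs2 and Rgs16. The 6 thalamus markers, Rgs16 among them, had a mean log2 signal of 9.89 to 10.06 in wild type, 8.70 to 9.23 in ob/ob and 9.26 to 9.48 in VE, and their part in these calls was not tested.

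The G protein alpha subunits held no call with all 9 arrays, at a median of -0.53 over 13 genes in ob/ob against wild type. At an unadjusted limma p under 0.05, 6 were lower (10.2% of all probe sets) and 1 was higher (9.88%). Gna13 was at -0.83 (limma adjusted p 0.0814) and Gna12 at -0.91 (limma adjusted p 0.125). Both passed without VE array 2 (limma adjusted p 0.0166 and 0.00959), as did 13.4% of all probe sets. The 24 effectors had a median of -0.20 and the 14 regulators of -0.32. Over all probe sets the median was 0.02, and over those above the median signal it was -0.21. In VE the regulator with the widest difference was Rgs9, a striatal gene, at 1.73 against ob/ob (limma adjusted p 0.124). Its VE arrays stood at 11.73, 9.74 and 11.77, with array 2 inside the ob/ob range of 8.64 to 10.09. Without array 2 Rgs9 rose by 2.40 against ob/ob (limma adjusted p 0.00614). The 7 measured striatal markers, Rgs9 among them, had a mean log2 signal of 10.80, 9.14 and 10.66 on the VE arrays. It was 8.88 to 9.65 in ob/ob and 9.06 to 9.24 in wild type. Of these 7 markers 0 passed with all 9 arrays, and 5 rose against ob/ob without VE array 2, beside 1.81% of all probe sets called. Their part in the values of Htr2a, Htr4 and Htr5a in VE was not tested.

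Genes that make or clear the transmitters gave no call with all 9 arrays. Tph2, the enzyme of serotonin synthesis in the raphe, stood at 7.96, 8.54 and 8.57 in wild type, 8.98, 9.64 and 9.07 in ob/ob, and 7.79, 9.45 and 8.41 in VE. All ob/ob arrays lay above wild type, at a difference of 0.87 (SE 0.358, limma adjusted p 0.198). Ache, which breaks down acetylcholine, was at -0.75 in ob/ob (SE 0.322, limma adjusted p 0.216), with all ob/ob arrays below wild type. Tph2 and Ache passed in ob/ob against wild type without VE array 2 (limma adjusted p 0.0261 and 0.0346), as did 13.4% of all probe sets. In VE against ob/ob Tph2 was at -0.68 (SE 0.358, limma adjusted p 0.446). Without VE array 2 it fell by 1.13 there (limma adjusted p 0.0403), beside 1.81% of all probe sets called. The noradrenaline genes, 4 of them measured, had none above the median signal. Hnmt, which clears histamine, was at -0.14 in ob/ob (95% interval -0.87 to 0.60, limma adjusted p 0.848).

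Among related receptors, Drd1, the dopamine receptor of striatal direct pathway neurons and a striatal marker, was at 1.17 in VE against wild type (SE 0.230, limma adjusted p 0.0779) and at 0.83 against ob/ob (limma adjusted p 0.124). Without VE array 2 it was at 1.10 (limma adjusted p 0.0622) and 0.76 (limma adjusted p 0.102). Its VE arrays, at 7.93, 8.16 and 7.98, lay above all others, whose highest was 7.37. Drd2, a striatal marker with a mean signal of 5.84, stood at 7.14, 5.15 and 6.87 on the VE arrays. It rose without VE array 2, by 1.40 against ob/ob (limma adjusted p 0.0102) and 1.49 against wild type (limma adjusted p 0.0078). That fit called 1.81% and 0.329% of all probe sets. Drd3 was higher by 0.67 in ob/ob mice than in lean ones (limma adjusted p 0.145). It passed in the fit without VE array 2, beside 13.4% of all probe sets called. Of the 11 nicotinic subunit genes, which share acetylcholine with the Chrm genes, Chrnb2 was at -0.56 in ob/ob (limma adjusted p 0.190) and Chrna7 at -0.93 in VE against wild type (limma adjusted p 0.304), or -0.60 (limma adjusted p 0.522) without VE array 2. Neither passed, and the nicotinic list had a median of 0.13 in ob/ob against wild type.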

How the data were processed

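The deposited values are log2 signals of 22206 probe sets on 9 arrays, made by the authors by SST-RMA with version 4.0.2 of Transcriptome Analysis Console, as the design text states. They were used without further normalization. Gene symbols came from the platform annotation (19572 probe sets with 1 symbol, 2634 with none). Group means were fitted over the 9 arrays with limma 3.58.1 in R 4.3.3 (6 residual and 7.03 prior degrees of freedom), with Benjamini-Hochberg adjustment over all probe sets. Arrays have no sequencing depth, and 3 per group limit the precision. The members, the lists and the tests were chosen with earlier results of these data known. Values per array are given for members above the median signal or with an unadjusted p under 0.05. Those of Adra1b and Htr1d, and the differences of the marker Prox1, were added after their values were seen. Pathway genes were picked when called, and otherwise by the smallest p among those above the median signal, up to 2 per list and comparison. Of the genes picked, Adcy1, Gnal, Gnaz, Plcb4, Rgs10, Chrna4, Maoa and Maob are not described. Drd2 lies outside that rule and is given for its calls without VE array 2. List means are plain means of log2 signals. Of 17 marker lists, those set beside a result are given, chosen after their values were seen; the 9 pathway lists are given as a pooled count, with medians for some. The fit was tested on simulated data with 200 changed probe sets. It recovered 0.0% of changes of 0.5 log2 units, 11.5% to 23.5% of changes of 1.0 and 91.0% to 94.0% of changes of 2.0. Most changes of the size reported here would thus be missed. Alternatives were the authors' rule (p under 0.05, fold over 1.1), 3 scalings, moderation, weights, filters, the replicate block, 2 groups alone and leaving out each array.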

Additional observations from a re-analysis of the deposited data

How the results depend on the processing

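The count of called members, 1, 0 and 1 in ob/ob against wild type, VE against ob/ob and VE against wild type, moved with the settings. It was 3, 5 and 2 by the authors' rule, whose unadjusted p alone took in 20.1%, 13.3% and 12.2% of all probe sets. With array weights it was 3, 3 and 1, beside 16.2%, 14.9% and 14.8% of all probe sets. In ob/ob against wild type it was 3 with the 2 groups alone, 2 with centred arrays and 2 with the 8 arrays quantile normalized without VE array 2. These settings called 11.8%, 2.77% and 8.87% of all probe sets. The count was 0 after quantile normalization, cyclic loess, trend moderation or the replicate block, which called 2.84%, 3.64%, 1.79% and 1.13%. In VE against wild type it was 0 under quantile normalization of 9 or 8 arrays, centring, cyclic loess, trend moderation, the replicate block and the 2 groups alone. These called 0.0% to 0.0856% of all probe sets. Leaving out 1 array gave 0 to 3, 0 to 0 and 0 to 1, beside 0.0% to 13.4%, 0.0% to 1.81% and 0.0% to 0.712% of all probe sets. The median member difference, -0.01, 0.06 and -0.06, was -0.11 (quantile), -0.10 (cyclic loess), -0.12 (8 arrays quantile normalized) and -0.35 (bright probe sets) in ob/ob against wild type. In VE against ob/ob it was 0.18 (quantile), 0.18 (centring), 0.16 (cyclic loess), 0.15 (8 arrays), 0.16 (bright probe sets) and 0.01 (array weights), and in VE against wild type -0.25 (bright probe sets). Leaving out 1 array gave medians of -0.05 to 0.00, -0.04 to 0.06 and -0.16 to 0.08. The causes were not tested. The members at an unadjusted p under 0.05 kept the sign of their difference in the refits run. Of all 25, 13, 9 and 12 took the other sign at least once in the 3 comparisons, and these were not called. Same-numbered arrays of different groups had correlated deviations of -0.0323 to 0.331, over 0.1 in 4 of 9 pairs, so the numbers were not taken to pair the mice. Of the arrays, 3 correlated best with their own replicate number in both other groups, and under the replicate block both calls of Chrm1 ended (adjusted p 0.0509 and 0.0711).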
